A study of Mus musculus with 22 samples.

Results

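The genes of the circadian clock were followed in the hypothalamus of mice bearing Lewis lung carcinoma. A list of 10 core clock genes was taken by symbol (Per1, Per2, Per3, Cry1, Cry2, Arntl, Clock, Dbp, Nr1d1 and Nr1d2), of which 8 had a probe set of their own among the 18820 genes of the array and are described here. Probe sets for Dbp and Nr1d1 were paired with a second gene each, so no value is given under either name. Of the 8 measured members, 0 passed the genome-wide test in any comparison, and Per1 on day 17 passed only when arrays were weighted by quality. Few genes of the array passed: 0.106%, 0.218% and 1.12% against control on days 10, 14 and 17. Between tumour days at most 0.00531% did, so 0 of 8 members is near the share of all genes. The weights raised the number of all genes passing on day 17 from 211 to 457. The measured differences lay within 1.30-fold of the control, counting the full 95% intervals.

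The animals were male C57BL/6 mice, 6 weeks old at inoculation and housed one to a cage with free access to a purified diet. Cells of this transplantable tumour were placed in hind-leg muscle under anaesthesia. The groups were controls taken on day 14 (4 mice) and tumour-bearing mice taken on day 10 (5 mice), day 14 (7 mice) and day 17 (6 mice). All mice were anaesthetised with ketamine and xylazine on the day of dissection, and 1 array was run per mouse. The labels do not say whether controls received an injection. Tumour days 10 and 17 had no controls of their own day, so those comparisons also contain a difference in day. Lights followed a regular dark-light cycle, and the sources used here do not give the hour of dissection.

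The mammalian clock is a transcriptional feedback loop that runs in most cells and is set by the suprachiasmatic nucleus of the hypothalamus. The proteins CLOCK and BMAL1, the product of Arntl, bind E-box sequences together and activate the Per, Cry and Nr1d genes. PER and CRY proteins then return to the nucleus and repress CLOCK and BMAL1, while the nuclear receptors REV-ERBα and REV-ERBβ, the products of Nr1d1 and Nr1d2, repress Arntl. Transcripts of the activating and the repressing arms therefore peak at different hours, and a level taken at a single time is one point on that cycle.

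Letters of the motifs known from the clock loop were searched in the members' own promoters, as a description and not as a test of binding. The promoters of Per1 and Cry1 are shown because these genes had the smallest p in the test for any difference between groups, and that of Per3, chosen after the sequences were seen, because it was the only member promoter with a D-box match. Each is the stretch of 250 bases before a transcription start in RefSeq (GRCm38.p6), written 5′ to 3′ on the gene's strand, with the motifs found on either strand in capitals. The Per1 stretch lies at chr11:69098699-69098948 on the plus strand, the Cry1 stretch at chr10:85185055-85185304 on the minus strand and the Per3 stretch at chr4:151044666-151044915 on the minus strand.
Per1: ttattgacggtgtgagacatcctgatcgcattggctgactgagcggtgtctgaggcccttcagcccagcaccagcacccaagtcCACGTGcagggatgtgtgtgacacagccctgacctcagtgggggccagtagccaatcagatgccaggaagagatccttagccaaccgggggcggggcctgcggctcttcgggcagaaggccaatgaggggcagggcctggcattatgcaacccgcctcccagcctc
Cry1: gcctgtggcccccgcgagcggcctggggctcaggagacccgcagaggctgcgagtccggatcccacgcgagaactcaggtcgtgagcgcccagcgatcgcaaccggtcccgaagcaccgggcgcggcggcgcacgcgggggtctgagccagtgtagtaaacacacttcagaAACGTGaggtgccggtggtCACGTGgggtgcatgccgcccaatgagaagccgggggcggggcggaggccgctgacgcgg
Per3: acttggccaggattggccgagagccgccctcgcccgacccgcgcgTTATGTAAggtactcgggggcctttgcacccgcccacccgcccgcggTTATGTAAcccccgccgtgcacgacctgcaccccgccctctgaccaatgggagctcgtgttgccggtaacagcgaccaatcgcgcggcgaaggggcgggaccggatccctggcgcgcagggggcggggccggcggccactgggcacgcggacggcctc
Per1 carried 1 E-box, CACGTG. The Cry1 stretch held the same E-box and, before it, AACGTG, which is the E-box variant CACGTT read on the other strand. Per3 carried the D-box TTATGTAA, the element bound by DBP, TEF, HLF and the repressor NFIL3, at 2 places. The RefSeq table held 13 promoters for 9 of the 10 listed genes and none for Per2. CACGTG was in 2 of these 13 and in 6.02% of 32851 promoters of the same length, CACGTT in 3 (Cry1, Cry2 and Nr1d1) and in 3.85%, and TTATGTAA in 1 and in 0.819%. A second Per1 stretch in the table held none of the motifs searched. Each of 4 other motifs was in 0 of the 13: the D-box TTACGTAA (0.113% of all promoters), the cAMP response element TGACGTCA (1.55%), the ROR and REV-ERB element (0.332%) and the glucocorticoid element (0.387%). Every motif was searched as a fixed pattern of letters within these 250 bases only. A site of other letters, or at or beyond the edge of the stretch, would be missed, so no match does not mean that a gene lacks the element.

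All values below are log2 array values, so a difference of 1 is a doubling, and levels are compared only within a gene because probe sets differ in brightness. Each of the 8 members had a mean above 3.87, a measure of background (the 95th percentile over 1180 probe sets of odorant and vomeronasal receptors). Mice of a group were close to each other: the standard deviation (SD) of a member within a group ran from 0.0366 to 0.187, and the highest mouse of a group was 1.05- to 1.47-fold above the lowest. As to tissue, 14 of 15 measured hypothalamus markers were above background, and 7 pituitary markers averaged 3.88 to 4.14 by group. The mean of 12 thalamus markers ran from 6.22 to 7.39 in controls and from 6.14 to 7.04 in tumour-bearing mice, with the highest value in a control. In dissected tissue, fewer cells of a type and less RNA per cell cannot be told apart.

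**Figure D1:**
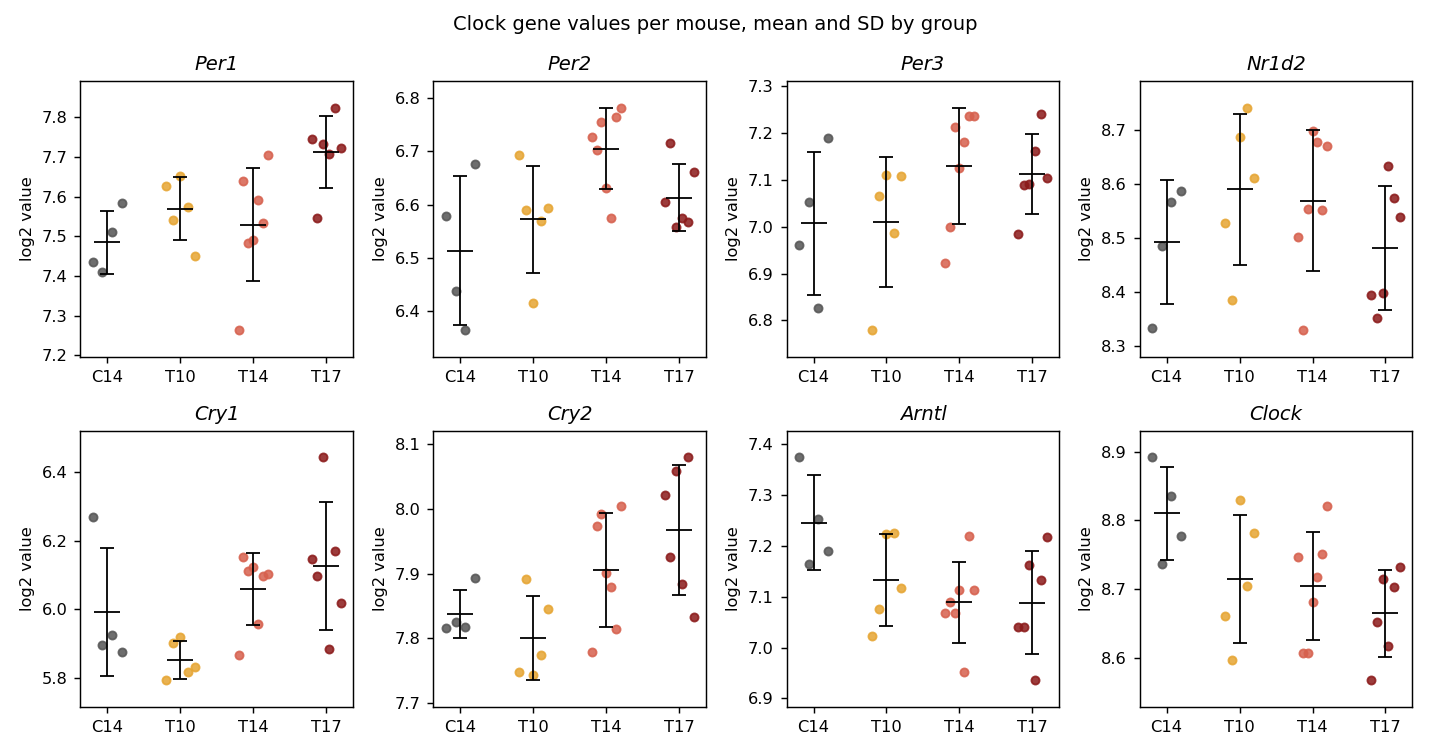
Log2 array values (vertical axes, scaled separately for each gene and not starting at 0) of the 8 measured clock genes in control mice of day 14 (C14, n = 4) and tumour-bearing mice of day 10 (T10, n = 5), day 14 (T14, n = 7) and day 17 (T17, n = 6). Each point is 1 mouse, the long bar is the group mean and the whiskers are 1 SD. Per1 of day 17 averages 7.71 against 7.48 in controls, and all 6 Clock values of day 17 lie under the control values.

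Among the Per genes, which encode the repressors that pair with CRY, Per1 had the largest difference from control of any member. Its control values were 7.44, 7.41, 7.51 and 7.58, and on tumour day 17 they were 7.75, 7.55, 7.73, 7.71, 7.82 and 7.72. Of the 6 mice of day 17, 5 lay above every control, and the lowest, at 7.55, lay among them. The difference was 0.23 ± 0.07 (SE, n = 6 and 4, 1.17-fold), with a 95% interval of 0.08 to 0.37, and it did not pass the test (limma adjusted p = 0.109). With array weights it did, at 0.24 (limma adjusted p = 0.0439), and adjusted p ran from 0.0439 to 0.247 over the alternatives. On day 10 the values were 7.63, 7.54, 7.65, 7.57 and 7.45, and on day 14 they ran from 7.26 through a median of 7.53 to 7.71. Both groups overlapped the controls, with differences of 0.08 ± 0.07 and 0.04 ± 0.07. By p, Per1 ranked 637 of 18820 genes on day 17.

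Per2, which also encodes a repressor, had its largest difference on day 14. Control values were 6.58, 6.44, 6.36 and 6.68, and those of tumour day 14 ran from 6.58 through a median of 6.73 to 6.78, so that 5 of 7 mice were above every control. The difference was 0.19 ± 0.06 (n = 7 and 4, limma adjusted p = 0.230). On day 10 the mean was 6.57 ± 0.10 (SD) and on day 17 it was 6.61 ± 0.06, against 6.51 ± 0.14 in controls, and both groups overlapped the controls. In this gene the order of the means was control, day 10, day 17 and day 14, and the neighbours in that order lay within 1 SD of each other except day 17 and day 14. Per3, the third member of the family, had means of 7.01 ± 0.15, 7.01 ± 0.14, 7.13 ± 0.12 and 7.11 ± 0.09 in controls and on days 10, 14 and 17. Its differences from control were 0.00 ± 0.08, 0.12 ± 0.08 and 0.10 ± 0.08, and on day 10 the sign depended on the setting.

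The cryptochromes Cry1 and Cry2 encode the partners of PER in the repressor complex, and their largest differences were between tumour days. Cry1 values on day 10 were 5.79, 5.90, 5.92, 5.82 and 5.83. On day 14 they ran from 5.86 through a median of 6.10 to 6.15, and on day 17 from 5.88 through 6.12 to 6.44. Of the mice of day 14, 6 of 7 lay above every mouse of day 10, and of day 17, 5 of 6. The difference between days 17 and 10 was 0.27 ± 0.08 (1.21-fold, limma adjusted p = 0.407), and that between days 14 and 10 was 0.21 ± 0.08 (limma adjusted p = 0.601). Control values were 6.27, 5.89, 5.92 and 5.88: 3 controls, at 5.88 to 5.92, were near the mice of day 10, and 1 lay above all but the highest mouse of day 17. Differences of Cry1 from control were -0.14 ± 0.09, 0.07 ± 0.09 and 0.14 ± 0.09 on days 10, 14 and 17, and without that control they were -0.05, 0.16 and 0.23, with adjusted p = 0.884, 0.619 and 0.248 by limma.

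Cry2 had the same order of means over the tumour days as Cry1. Its values on day 10 were 7.75, 7.89, 7.74, 7.77 and 7.84, while day 17 ran from 7.83 through a median of 7.97 to 8.08. Days 17 and 10 differed by 0.17 ± 0.05 (limma adjusted p = 0.437), with some overlap. The controls, at 7.82, 7.83, 7.82 and 7.89, were the tightest of all 32 combinations of member and group (SD 0.0366). Day 17 stood 0.13 ± 0.06 above them (limma adjusted p = 0.265), with 4 of 6 mice above every control. A straight line through the tumour days gave a slope of 0.040 ± 0.012 per day for Cry1 and 0.024 ± 0.008 for Cry2 (adjusted p = 0.386 and 0.421), where 8.57% of all genes had an unadjusted p below 0.05 and 0% passed.

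Arntl and Clock encode the activating pair, and both had lower means than control in every tumour group. Clock values were 8.89, 8.74, 8.84 and 8.78 in controls and 8.57, 8.65, 8.71, 8.62, 8.70 and 8.73 on tumour day 17. All 6 mice of day 17 lay below every control, which was the case for 3.3% of all genes. The gap was narrow, since the highest mouse of day 17 and the lowest control were nearly level, and the difference was -0.15 ± 0.06 (SE, limma adjusted p = 0.190). On days 10 and 14 the differences of Clock were -0.10 ± 0.06 and -0.11 ± 0.05, with 3 of 5 and 4 of 7 mice below every control.

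Arntl values were 7.37, 7.16, 7.25 and 7.19 in controls. On day 10 they were 7.02, 7.08, 7.22, 7.23 and 7.12, and 3 of 5 lay below every control. Day 14 ran from 6.95 through a median of 7.09 to 7.22, with 6 of 7 below, and day 17 from 6.94 through 7.09 to 7.22, with 5 of 6 below. The differences were -0.11 ± 0.06, -0.16 ± 0.06 and -0.16 ± 0.06 (limma adjusted p = 0.550, 0.349 and 0.211). The 3 comparisons share the same 4 controls, whose highest Arntl value, 7.37, and highest Clock value, 8.89, came from the same mouse, which was also the control with the high Cry1 value. Within the first 9 samples in accession order, which hold only that control, the day 17 difference was -0.29 for Arntl and -0.25 for Clock. Among the last 13, with the other 3 controls, it was -0.11 and -0.10, while Arntl was -0.01 and -0.10 on days 10 and 14 and Clock was -0.01 and -0.04. In those samples the activating pair was thus nearly level with control on day 10. With the mean of the thalamus markers as a covariate the day 17 values were -0.15 for Arntl and -0.15 for Clock.

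Nr1d2, the REV-ERBβ gene that represses Arntl, had means of 8.49 ± 0.12, 8.59 ± 0.14, 8.57 ± 0.13 and 8.48 ± 0.12 (SD) in controls and on days 10, 14 and 17. All groups overlapped, and the differences from control were 0.10 ± 0.08, 0.08 ± 0.08 and -0.01 ± 0.08 (SE). The sign of the last depended on the setting. A further probe set for Nr1d2 had a mean of 2.87, below background, and was not used.

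**Figure D2:**
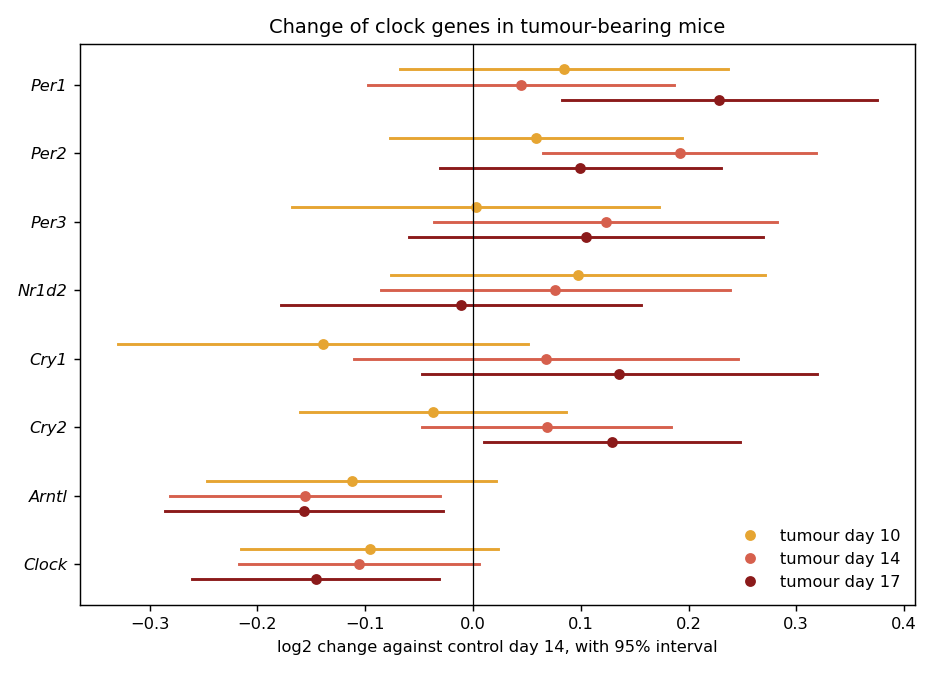
Difference of each measured clock gene from control day 14 on the log2 scale (horizontal axis) for tumour days 10, 14 and 17. Points are limma estimates and lines are 95% intervals, with 0 marked. The intervals of Arntl and Clock lie below 0 on day 17 and those of Per1 and Cry2 above it, before adjustment for the number of genes tested.

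Counted over the 8 members, none passed an adjusted p below 0.05 with limma on day 10, day 14 or day 17, where 0.106%, 0.218% and 1.12% of all 18820 genes did. At an unadjusted p below 0.05 the members numbered 0, 2 and 4 of 8, against 10.7%, 10.5% and 16.6% of all genes. The 2 of day 14 were Per2, higher (4.28% of all genes were), and Arntl, lower (6.18%). The 4 of day 17 were Per1 and Cry2, higher (6.13%), and Arntl and Clock, lower (10.5%). The mean was above control in 4, 6 and 5 of 8 members, against 50.3%, 48% and 46.3% of all genes. The median difference of the members was -0.02, 0.07 and 0.10, beside 0.00, 0.00 and -0.01 over all genes.

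Between tumour days, again 0 members passed, where 0.00531% of genes did for day 14 against day 10 and 0% for day 17 against day 10 and against day 14. Unadjusted p-values below 0.05 numbered 2 (Per2 and Cry1; 7.13% of all genes), 3 (Per1, Cry1 and Cry2; 8.3%) and 1 (Per1; 4.17%), and in each of these the later day was higher, as for 3.04%, 3.08% and 1.82% of all genes. For any difference between the 4 groups, the F test passed 0 of 8 members and 0.335% of all genes, and 4 members had an unadjusted p below 0.05 (11.8% of all genes): Per1, Cry1, Per2 and Cry2, with limma adjusted p = 0.284, 0.324, 0.342 and 0.350. Per1 of day 17 differed from day 14 by 0.18 ± 0.06 and from day 10 by 0.14 ± 0.07, and 5 of 6 mice of day 17 were above every mouse of either day. For the 24 differences from control, 95% intervals reached from -0.33 to 0.37.

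Whether members of the loop varied together between mice of a group was asked for all 28 pairs. The pairs were compared over the 22 mice after removing group means. No pair passed Benjamini-Hochberg adjustment over the 28 by Pearson's r or Spearman's rho (permutation of one gene within groups, 100000 resamples, two-sided), and 3 had an unadjusted p below 0.05. Arntl and Clock had r = 0.586 (permutation p = 0.00876, adjusted p = 0.214) and rho = 0.645 (permutation p = 0.00373, adjusted p = 0.104). Without the 2 mice farthest from the median of Arntl, r was 0.576, and within the first 9 and last 13 samples it was 0.340 and 0.482. Cry1 and Arntl had r = 0.563 and rho = 0.508 (permutation p of r = 0.0153, adjusted p = 0.214). Without the 2 mice farthest from the median of Cry1, r was 0.453, and within the first 9 and last 13 samples it was 0.822 and 0.682. Cry1 and Cry2 had r = 0.502 and rho = 0.512 (permutation p of r = 0.0251, adjusted p = 0.234). Without the 2 mice farthest from the median of Cry1, r was 0.588, and within the first 9 and last 13 samples it was 0.83 and 0.42. The lowest r was that of Cry1 and Nr1d2, -0.429 (permutation p = 0.0518, adjusted p = 0.362). Without 1 mouse, tumour day 17 replicate 6, the pair of Cry1 and Arntl had r = 0.697 (permutation p = 0.00116) and passed the adjustment (adjusted p = 0.0325).

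**Figure D3:**
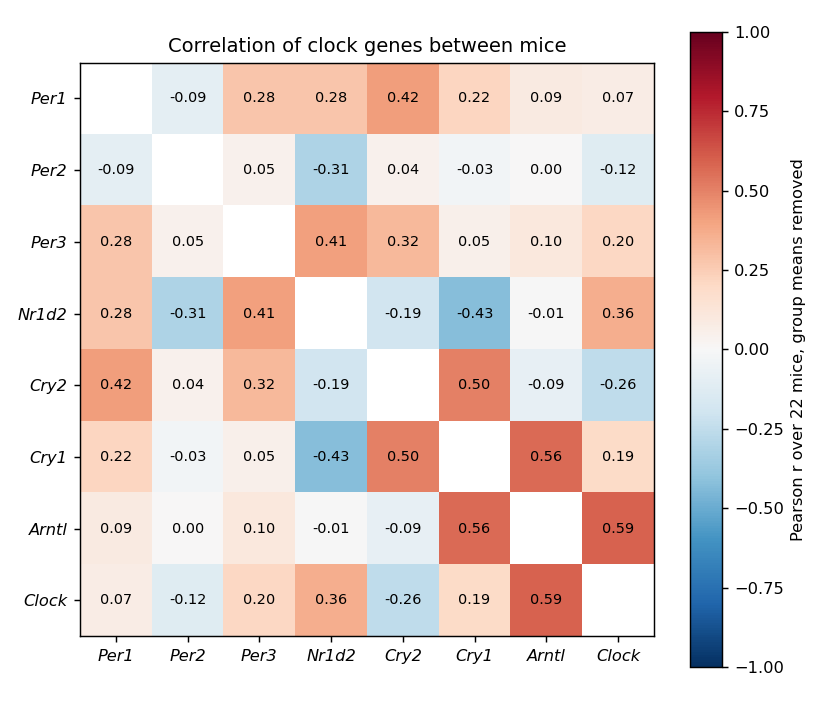
Pearson's r between each pair of measured clock genes over 22 mice, on log2 values with the mean of each mouse's group removed. Red is positive and blue negative on a scale of -1 to 1. The highest values are those of Arntl with Clock (0.59) and Arntl with Cry1 (0.56), and the lowest is that of Cry1 with Nr1d2 (-0.43).

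The values of Nr1d2 also differed by the order of accession. Samples were split into the first 9 and the last 13 by accession number. The labels do not state that this is a batch, and each part holds mice of every group. In the first 9, Nr1d2 ran from 8.33 to 8.55 with a mean of 8.42, and in the last 13 from 8.48 to 8.74 with a mean of 8.62. Of the 13, 10 were above all of the first 9. With the groups in the fit the difference was 0.20 ± 0.03 (limma adjusted p = 0.00139), where 12.1% of all genes passed. Per3 had 0.13 ± 0.05 (adjusted p = 0.0818), and the other 6 members had adjusted p of 0.239 or more. With this term in the fit, Nr1d2 stood 0.13, 0.11 and 0.04 above control on days 10, 14 and 17 (limma adjusted p = 0.322, 0.355 and 0.725). Per1 of day 17 was 0.24 above control within the first 9 samples, which hold 1 control, and 0.25 within the last 13.

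**Figure D4:**
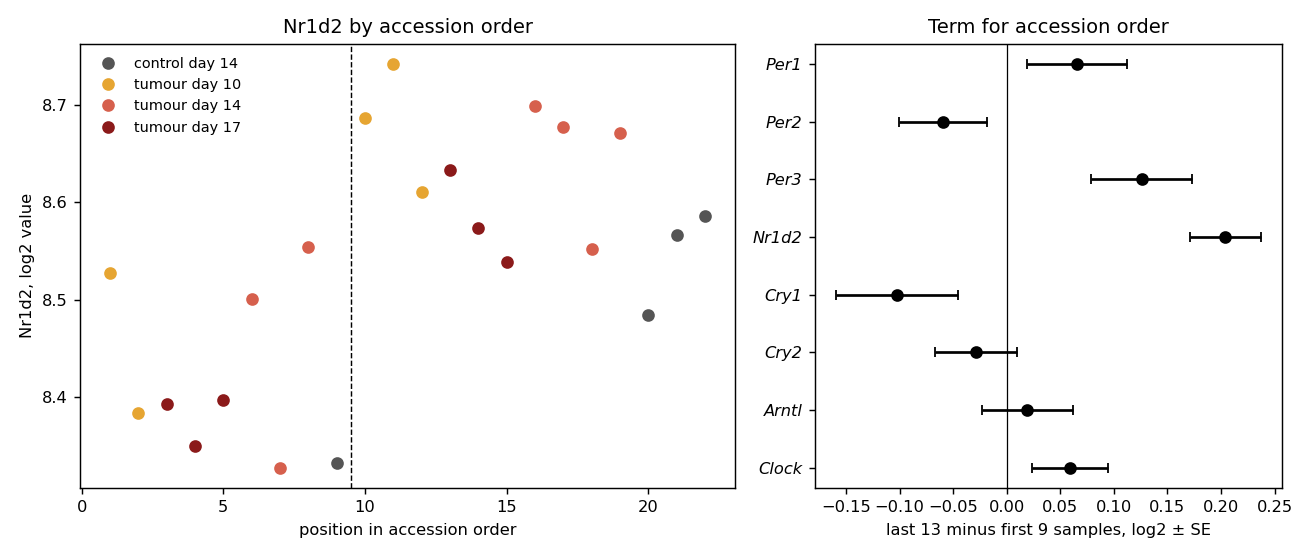
Left, log2 value of Nr1d2 (vertical axis) in each of 22 mice by position in accession order, coloured by group, with a dashed line between the first 9 and the last 13. Right, the difference of the last 13 from the first 9 for each measured clock gene with its SE, from a fit that also holds the groups: Nr1d2 has 0.20 and Per3 0.13.

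The circle of genes around the core loop was described from a list of 20 partners and outputs, of which 18 were measured. None passed with limma on day 10, 14 or 17 (0.106%, 0.218% and 1.12% of all genes did), nor under any alternative run. An unadjusted p below 0.05 was found for 2, 2 and 7 of the 18, against 10.7%, 10.5% and 16.6% of all genes. Of the 7 of day 17, 3 were higher and 4 lower, where 6.13% and 10.5% of all genes were. The mean was above control in 9, 11 and 8 of the 18, against 50.3%, 48% and 46.3% of all genes. On day 10 the 2 smallest p were those of Btrc, a ubiquitin ligase subunit that targets PER proteins (-0.12 ± 0.05, adjusted p = 0.435), and Wee1, a cell cycle kinase gene under clock control (-0.17 ± 0.08, adjusted p = 0.449). On day 14 they were those of Tef, a D-box activator (0.14 ± 0.05, adjusted p = 0.342), and Nfil3, the D-box repressor (-0.19 ± 0.08, adjusted p = 0.415). On day 17 they were those of Bhlhe40, a repressor that competes for E-boxes (0.16 ± 0.06, adjusted p = 0.165), and Ciart, which encodes a repressor of CLOCK and BMAL1 (0.34 ± 0.12, adjusted p = 0.173). The median difference of the 18 was 0.00, 0.02 and -0.01. With members, predicted genes, small RNAs and odorant or vomeronasal receptors left out, Ciart was also among the 3 genes most like Per1. Its r with Per1 over the 22 arrays was 0.758, or 0.747 after removing group means. Rad18 (0.766 and 0.591) and Sec13 (0.753 and 0.790) were the other 2. Most like Arntl were Ago3 (0.846 and 0.783), Ddhd1 (0.773 and 0.639) and Hsph1 (0.773 and 0.652). These genes were picked for the highest r, where the median r over all genes was -0.07 for Per1 and 0.03 for Arntl. Their r describe the 22 arrays, which share the accession order and dissection differences given above.

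**Figure D5:**
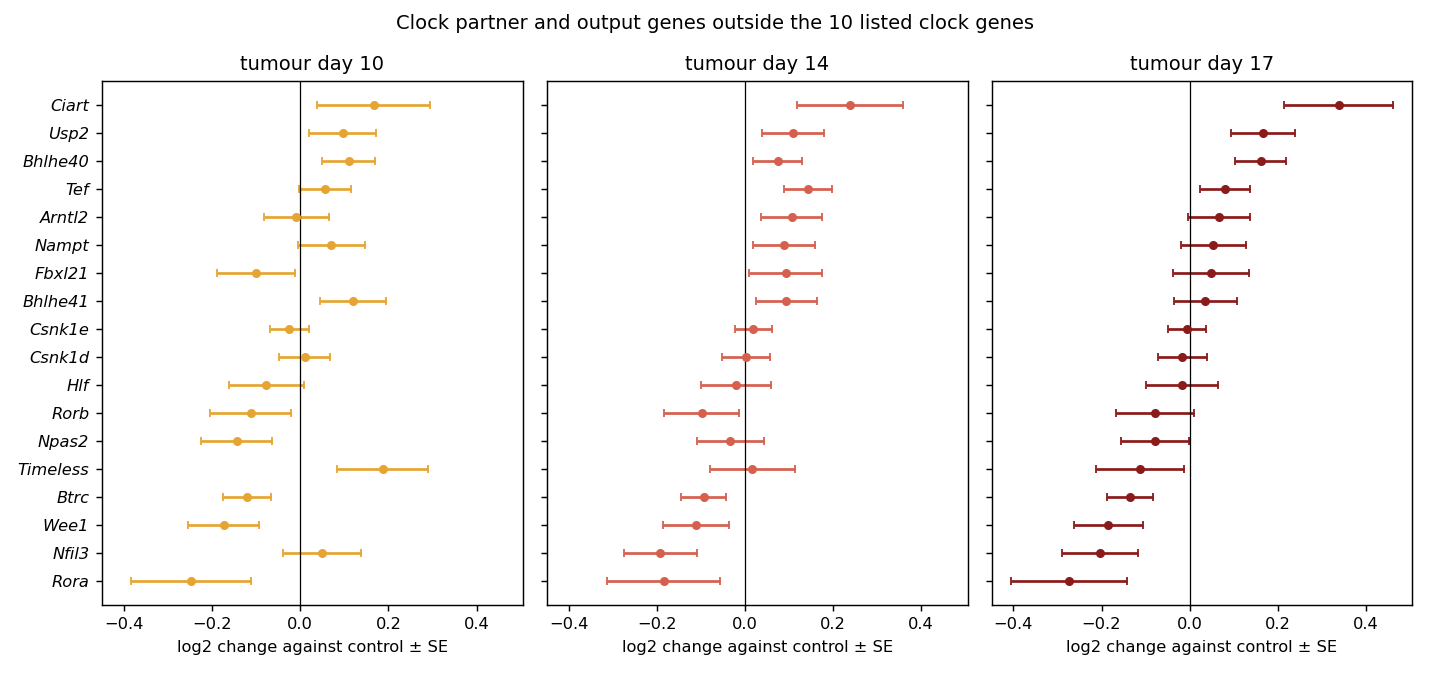
Log2 difference from control day 14 (horizontal axes) of 18 clock partner and output genes outside the core list on tumour days 10, 14 and 17, with the SE of the fit, ordered by the day 17 value. Ciart has the highest value on day 17 (0.34) and Rora, which is also a thalamus marker, the lowest (-0.27).

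Genes that mark the suprachiasmatic nucleus, the site of the master clock, were measured for 12 of 12 listed, and none passed with limma on any tumour day. An unadjusted p below 0.05 was found for 3, 2 and 1 of the 12, against 10.7%, 10.5% and 16.6% of all genes. The mean was above control in 3, 5 and 2 of the 12, against 50.3%, 48% and 46.3% of all genes. Their median difference was -0.11, -0.01 and -0.14, beside 0.00, 0.00 and -0.01 over all genes. Rgs16, a regulator of G-protein signalling that cycles in that nucleus, was lower by value on all 3 days, at -0.50 ± 0.20, -0.48 ± 0.18 and -0.65 ± 0.19 (adjusted p = 0.372, 0.344 and 0.0936). The 12 thalamus markers were also lower by value, with median differences of -0.35, -0.37 and -0.40. None of them passed on any day (0.106%, 0.218% and 1.12% of all genes did). Their unadjusted p was below 0.05 for 3, 0 and 2 of the 12, against 10.7%, 10.5% and 16.6% of all genes. A part of dissection in the Rgs16 values was not tested. The mean of the list ran from 6.53 to 6.65 in controls and from 6.12 to 6.79 on day 17, a wider range than in controls. Vipr2, the receptor through which cells of the nucleus stay in step, was -0.27 ± 0.11 on day 10 (adjusted p = 0.390). Avp, the vasopressin gene, which other hypothalamic nuclei also express, was 0.43 ± 0.16 on day 14 (adjusted p = 0.317) and 0.29 ± 0.16 on day 17 (adjusted p = 0.366). With the list mean as a covariate, Per1 of day 17 stood 0.21 above control (limma adjusted p = 0.188).

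Glucocorticoids are a signal known to induce Per1, and a list of genes that respond to them was counted in the same mice. Of 18 listed and measured, 1, 5 and 4 rose on days 10, 14 and 17 (0.101%, 0.197% and 0.436% of all genes did) and 0 fell, with a median difference of 0.21, 0.27 and 0.24. This list was chosen with earlier results of these data known, so its counts are a description and not independent evidence. Zbtb16, a transcription factor gene, rose by 1.04 ± 0.20, 1.18 ± 0.19 and 0.84 ± 0.20 on the 3 days (limma adjusted p = 0.041, 0.00738 and 0.0408). On day 10 it passed in 15 of 35 alternatives, with adjusted p from 0.00465 to 0.437. Map3k6, Hif3a and Fkbp5 rose on day 14 by 0.65 ± 0.10, 0.91 ± 0.16 and 0.64 ± 0.12, and on day 17 Hif3a, Sgk1 and Map3k6 rose by 0.84 ± 0.16, 0.55 ± 0.11 and 0.43 ± 0.10. These counts moved with single controls: without control replicate 1, 2 or 3 the numbers that rose were 0, 0 and 0 on day 10, 1, 0 and 0 on day 14, and 0, 1 and 0 on day 17, and without replicate 4 they were 2, 7 and 6 on the 3 days. With only the compared groups in the fit they were 0, 0 and 2, and with the thalamus covariate 0, 2 and 1. The genes that had risen stayed higher than control by value in every alternative. The differences of Per1 on the same days were 0.08, 0.04 and 0.23, and the part of this list in the clock values was not tested. Of 15 activity-induced genes, the immediate early genes of neurons, 0, 1 and 1 passed (0.106%, 0.218% and 1.12% of all genes did): Nr4a3 fell by 0.73 on day 14 (adjusted p = 0.0026) and Jun by 0.28 on day 17 (adjusted p = 0.0329). Nr4a3 did not pass with only the compared groups in the fit or among the last 13 samples. Jun did not pass when any single control was left out. An unadjusted p below 0.05 was found for 4, 6 and 4 of the 15 on days 10, 14 and 17, against 10.7%, 10.5% and 16.6% of all genes. Among these, 2, 6 and 3 were lower. The median difference of the 15 was -0.06, -0.19 and -0.03, beside 0.00, 0.00 and -0.01 over all genes. On day 10 the 2 smallest p of this list were those of Nr4a1 (-0.64 ± 0.17, adjusted p = 0.174) and Arc (-0.28 ± 0.10, adjusted p = 0.303), and of the 4 with an unadjusted p below 0.05 the other two, Egr3 (0.36 ± 0.12, adjusted p = 0.303) and Fosb (0.32 ± 0.12, adjusted p = 0.339), were higher by value.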

How the data were processed

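RNA of 22 hypothalami was hybridised with 1 array per mouse. The deposited log2 values had been made by the authors with RMA, per the submitters' processing notes; its version, the build and the annotation are not given in the sources used here. Platform annotation paired 21218 of 35556 probe sets with 1 gene, 1881 with several and 12457 with none, and the probe set with the highest mean stood for each of 18820 genes. Dbp and Nr1d1 had only shared probe sets, so 28 pairs of members were correlated in place of 45 and Dbp was dropped as a reference for likeness. Array medians ran from 5.27 to 5.34. Precision is limited by how many arrays there are.

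For the tests, limma 3.58.1 (R 4.3.3; lmFit, eBayes without trend, 18 residual degrees of freedom) estimated the 4 group means from all 22 arrays in a single fit, two-sided, with Benjamini-Hochberg adjustment over 18820 genes and a threshold of 0.05. The fit was tested on simulated data. All measured members were named; of other lists, up to 4 genes past the threshold per comparison, otherwise the 2 smallest p. Members and lists were chosen with earlier results of these data known. Alternatives changed the moderation, weights, scaling, filter, probe set rule, samples, covariates, threshold and replicate block.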

Additional observations from a re-analysis of the deposited data

Results flagged for a closer look

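Of 32 combinations of member and group, 2 held a mouse far from the rest of its group, a rule that chance meets in about 1 of 20 groups. Cry1 in control day 14 replicate 1 was 6.27, and the nearest other control was 5.92. Without it, the differences of Cry1 from control were -0.05, 0.16 and 0.23 on days 10, 14 and 17. Cry2 in control day 14 replicate 4 was 7.89, and the nearest other control was 7.83. Without it, the differences of Cry2 from control were -0.02, 0.09 and 0.15, and none passed with limma.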

How the results depend on the processing

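With array weights, 1 member passed on day 17: Per1, at 0.24 (limma adjusted p = 0.0439), where 457 genes passed in all against 211. Its adjusted p ran from 0.0439 to 0.247 over all alternatives and its difference from 0.20 to 0.27. Every other count of members passing stayed at 0 under every alternative run, and the count of correlated pairs ran from 0 to 1 when single mice were left out. Replicate numbers were not taken to pair the mice. Of 28 same-numbered pairs, 15 had r over 0.1 and 8 had r below 0 (from -0.19 to 0.35). Differently numbered pairs were not compared, so these r cannot decide whether the numbers pair the mice. With the replicate block 0 members passed (Per1 0.22, adjusted p = 0.113; Clock -0.17, adjusted p = 0.0771, both day 17), while 24, 140 and 616 genes passed on days 10, 14 and 17 against 20, 41 and 211. Adjusted p ran from 0.0771 to 0.448 for Clock of day 17 and from 0.0712 to 0.621 for Per2 of day 14.

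Of the 24 differences of members from control, 2 changed sign, both near 0 and not passing. Nr1d2 of day 17 was 0.0219 with arrays centred on the median, 0.0322 after a second quantile normalization, 0.0398 with the term for accession order and 0.0361 in the last 13 samples, and it ran from -0.0645 to 0.0200 when single mice were left out. Per3 of day 10 was -0.0241 with the replicate block, -0.0793 with the thalamus covariate and -0.00070 with the suprachiasmatic covariate, and it ran from -0.0577 to 0.0632 when single mice were left out. The cause was not tested. The number of all genes passing on day 17 ran from 0 among the last 13 samples alone, a fit of fewer mice, to 616 with the replicate block, and was 37, 59 and 56 without control replicates 1, 2 and 3. Without the same controls it was 0, 0 and 0 on day 10 and 4, 2 and 2 on day 14, and it was 0 on day 14 with only the compared groups in the fit.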

Other observations

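Probe sets shared by Dbp or Nr1d1 with a second gene are given as probe-set values, since the array does not say which gene a signal comes from. The probe set paired with Sphk2 and Dbp averaged 8.00 ± 0.14, 8.08 ± 0.12, 8.14 ± 0.06 and 8.07 ± 0.13 (SD) in controls and on tumour days 10, 14 and 17. Its differences from control were 0.08 ± 0.08, 0.14 ± 0.07 and 0.07 ± 0.07 (SE, limma adjusted p = 0.781, 0.624 and 0.724 over all probe sets). Of 2 probe sets paired with Nr1d1 and Thra, which overlap on opposite strands, 1 averaged 8.95, 9.05, 9.15 and 9.13, with differences of 0.10 ± 0.12, 0.21 ± 0.11 and 0.18 ± 0.11. The other averaged 10.61, 10.55, 10.59 and 10.61. None of the 3 passed on any day.

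The second Nr1d2 probe set, whose mean of 2.87 lay below background, differed by -0.24 ± 0.08 between tumour days 17 and 10 (limma adjusted p = 0.610). Averaging it with the first gave Nr1d2 differences from control of 0.01 on day 14 and -0.08 on day 17.

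Markers of red cells, of which 3 of 7 were measured, averaged 4.37 in controls and 6.00 on tumour day 17, and their part in the clock gene values was not tested. Neuron markers averaged 10.16 in controls and 10.06, 10.07 and 10.05 on tumour days 10, 14 and 17. Of the 6 measured, 0 passed on any day, where 0.106%, 0.218% and 1.12% of all genes did.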
